A study of Mus musculus with 10 samples.

Results

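Il33, the alarmin cytokine interleukin 33, its receptor genes Il1rl1 and Il1rap, the related cytokine gene Il18, and the signal transducers Myd88, Traf1 and Traf6 were examined in single Bergmann glia of mouse cerebellum, 5 at P30 and 5 at P6. The 7 genes were chosen from earlier results on these same cells, in which the P30 to P6 differences of Il33 and of 1 probe set of Traf1 were known, so these differences are given as a description without a test. A probe set, a group of short probes read out together on the array, was used when the array annotation paired it with exactly 1 gene and it had a value in all 10 cells. Of the 7 genes, 6 had such probe sets, 14 in number, out of 18194 genes and 33964 probe sets of this kind on the whole array. These were 1 each for Il33, Il18 and Myd88, 2 for Traf1, 4 for Il1rap (another was left out for a missing value) and 5 for Traf6. For Il1rl1 no probe set was paired with the gene alone, and it was not analysed here.

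The cells came from the mid-sagittal cerebellum of GFAP-GFP reporter mice, aged P30 (postnatal day 30) in 1 group and P6 (postnatal day 6) in the other, with no treatment named at either age. GFP was driven by the Gfap promoter, which other astrocytes use too, and cells were picked by hand for strong fluorescence and bushy unipolar shape. Each cell was lysed, its cDNA was amplified by PCR, and the product was hybridised to 1 Affymetrix mouse genome array. The labels call the cells biological replicates but do not tie them to animals. An age may hold cells of a single mouse, so that neither a p-value nor a standard error can be had. The SD (n = 5 cells) and ranges describe cells only. Values are the deposited ratios, in which a probe set is divided by a median of its own measurements, and means and differences are on the log2 scale. A ratio shows how a probe set varies between cells and nothing about its level against another probe set. The floor used was 0.01, the lowest ratio above 0, and 10 zeros were set to it.

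Interleukin 33 is stored in the nucleus and released from damaged cells. It binds ST2, the product of Il1rl1, which pairs with the accessory protein encoded by Il1rap, and the receptor pair recruits the adaptor MyD88, IRAK kinases and the ubiquitin ligase TRAF6. TRAF6 activates the kinase TAK1, from which signals run to NF-kappaB and to the stress kinases that act on AP-1. TRAF1 lacks the RING domain of TRAF6, is joined to TNF receptor family members through TRAF2, and is itself induced by NF-kappaB. In mouse brain, astrocytes and oligodendrocytes are known sources of interleukin 33, and microglia are known responders.

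The sequences upstream of Il33 and Traf1 are shown because these genes had the largest differences of the 7 between the ages. They are the 250 bases before each start in RefSeq (GRCm38.p6), 5′ to 3′ on the strand of the gene, with the letters TATAAA in capitals. The first Il33 start follows chr19:29924863-29925112 (plus strand, 45.2% GC), the second follows chr19:29945540-29945789 (plus strand, 39.6% GC), and that of Traf1 lies beside chr2:34961773-34962022 (minus strand, 48.0% GC).
Il33 start 1: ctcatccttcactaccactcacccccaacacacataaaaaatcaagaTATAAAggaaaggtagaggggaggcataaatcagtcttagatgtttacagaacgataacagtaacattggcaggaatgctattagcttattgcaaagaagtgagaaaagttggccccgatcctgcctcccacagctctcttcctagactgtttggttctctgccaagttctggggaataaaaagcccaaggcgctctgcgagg
Il33 start 2: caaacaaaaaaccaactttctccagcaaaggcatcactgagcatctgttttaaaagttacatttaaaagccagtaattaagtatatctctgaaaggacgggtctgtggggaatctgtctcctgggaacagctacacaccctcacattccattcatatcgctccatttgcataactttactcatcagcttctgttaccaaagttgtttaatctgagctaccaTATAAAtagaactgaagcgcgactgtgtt
Traf1: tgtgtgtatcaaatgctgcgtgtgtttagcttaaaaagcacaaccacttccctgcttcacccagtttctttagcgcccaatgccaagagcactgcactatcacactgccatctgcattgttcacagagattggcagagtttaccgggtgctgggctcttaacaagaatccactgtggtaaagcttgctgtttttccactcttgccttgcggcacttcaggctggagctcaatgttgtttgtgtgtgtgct
TATAAA began 203 bases before the first Il33 start and 29 bases before the second, both on the strand of the gene, and was not found on either strand in the Traf1 window. All 7 genes matched the promoter table, with 9 starts. Elsewhere in these, TATAAA occurred 175 bases before the Il18 start (opposite strand) and 164 and 160 bases before that of Myd88, where the 2 matches overlap on opposite strands. Searched on both strands, 12.4% of the 32851 promoters of the table hold TATAAA, 6.75% the AP-1 letters TGANTCA and 7.25% the NF-kappaB consensus, and neither AP-1 nor NF-kappaB letters occurred in any of the 9 windows. Matches of this kind are a description of letters, and the median GC content of all promoters was 52.4%.

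Across the array the ratios were of like scale in all cells, with medians between 0.726 (P30 replicate 5) and 1.00. At the floor of 0.01 lay 1.73% of P30 and 1.07% of P6 values. The P6 median was 1 for 69.5% of complete probe sets and for 8 of the 14 of these genes, so that the ratios are set close to P6. Because they carry no level, they cannot show whether the markers of Bergmann glia or of other cell types were present. The authors kept cDNAs positive for astroglial and negative for neuronal markers by PCR and Southern blot. From the array signals, they report several neuronal, oligodendrocyte and microglial markers as low or absent. Of 44 probe sets for astroglia and Bergmann glia, 8 were more than 3-fold higher and 1 lower at P30 (median log2 difference 0.31). The list for the oligodendrocyte lineage, a known source of interleukin 33, had 10 of 29 higher and 1 lower (median 0.59). That for microglia and macrophages had 0 of 21 higher and 1 lower (median -0.02). Of all 33964 probe sets used, 6.91% were more than 3-fold higher at P30 and 12.3% lower.

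Il33 was at the floor in every P30 cell. Its ratio was 0.01 in all 5 P30 cells, against 0.652, 1.77, 1.54, 0.198 and 1.00 in P6 cells, so that the lowest P6 cell was still well above every P30 cell. The mean log2 ratio was -6.64 at P30 and -0.30 ± 1.27 at P6, a difference of -6.34, or at least 81.2-fold lower at P30 since the P30 values are bounds. A P30 mean more than 3-fold below that of P6 was found for 12.3% of all these probe sets and for 1 of the 14 here, Il33, and all P30 cells lay below all P6 cells for 1.96% overall and again for Il33 alone of the 14. Within P6, the cells spanned 8.95-fold, with replicate 4 the lowest. Raising the floor to 0.1 brought the difference to -3.02.

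**Figure D1:**
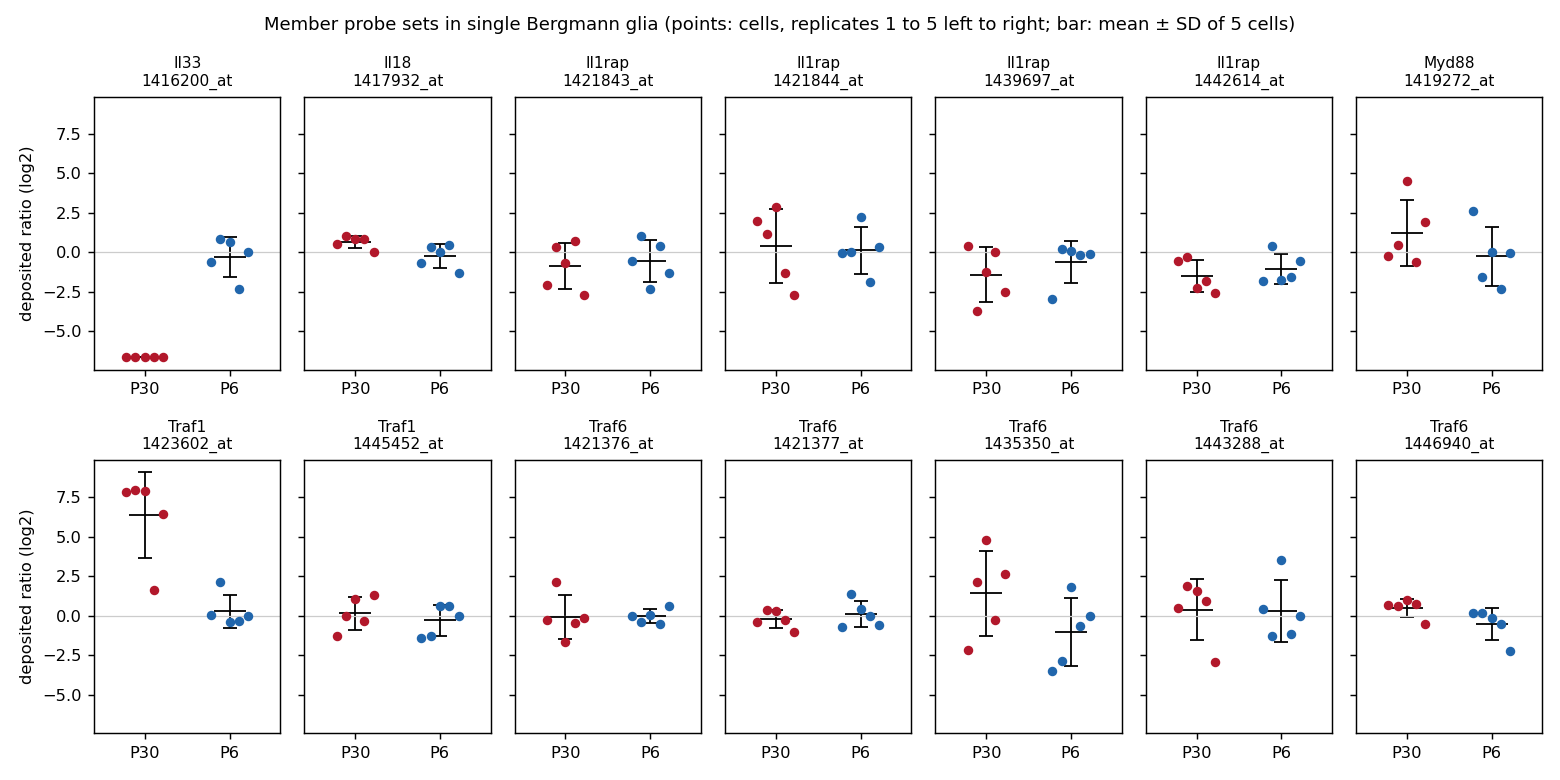
Deposited ratio of each of the 14 probe sets in single cells (log2 axis), with P30 cells left of P6 cells in each panel and a bar at the mean of 5 cells. Il33 lies at 0.01 in all P30 cells, and Traf1 1423602_at is above 88 in 4 P30 cells and at 3.10 in the other.

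Il18 encodes a cytokine that, like interleukin 1 beta, is cut into its active form by caspase-1. Its ratio was 1.41, 2.04, 1.76, 1.77 and 1.01 in P30 cells, against 0.632, 1.25, 1.00, 1.40 and 0.400 in P6 cells. Except for replicate 5, the P30 cells were above every P6 cell, by little in replicate 1. The mean was 0.63 ± 0.40 at P30 and -0.24 ± 0.75 at P6, a difference of 0.87 (1.83-fold), within 3-fold. The P30 cells spanned 2.02-fold, and Il18 thus differed in the opposite direction to Il33 and by far less.

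Il1rap, the accessory chain shared by the receptors for interleukin 1, interleukin 33 and interleukin 36, gave 4 small differences of mixed sign, from -0.82 to 0.28, with overlapping cells in each. The largest was that of 1439697_at, with ratios of 1.33, 0.0760, 0.411, 0.997 and 0.172 in P30 cells, against 0.126, 1.13, 1.07, 0.870 and 0.926 in P6 cells. Both ages held high and low cells there, and the difference was -0.82 (SD 1.73 at P30 and 1.34 at P6). The other differences were -0.44 for 1442614_at, -0.34 for 1421843_at and 0.28 for 1421844_at, the last of which came to 0.00 with spike scaling and spanned 47.2-fold among P30 cells and 18-fold among P6 cells. P30 replicate 5 had the lowest P30 ratio in 3 of these 4, between 0.152 and 0.168.

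Myd88, the adaptor next to these receptors, varied more between cells of an age than between ages. Its ratio was 0.849, 1.37, 22.8, 0.656 and 3.84 in P30 cells, against 5.98, 0.336, 1.03, 0.199 and 0.972 in P6 cells. P30 replicate 3 stood highest, P6 replicate 1 next, and the remaining cells of both ages overlapped. The mean was 1.21 ± 2.08 at P30 and -0.26 ± 1.89 at P6, a difference of 1.48 (2.78-fold), just within 3-fold. Leaving out 1 cell gave 0.65 (without P30 replicate 3) to 2.19 (without P6 replicate 1), and 4 of these 10 values were past 3-fold, as were 1.63 with arrays scaled to their median and 1.79 by arithmetic means. The difference of medians was 0.49.

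Traf1 1423602_at was high in 4 of the 5 P30 cells. Its ratio was 227, 247, 239, 3.10 and 88.1 in P30 cells, against 1.04, 4.28, 0.746, 0.773 and 1.00 in P6 cells. P30 replicate 4, at 3.10, lay below P6 replicate 2 and above the other 4 P6 cells, so that the ages overlapped by this cell. The mean was 6.35 ± 2.71 at P30 and 0.27 ± 1.04 at P6, a difference of 6.08 (67.7-fold higher at P30), which ranked 27 of 33964 from the most positive. Without P30 replicate 4 the difference was 7.26. The second Traf1 probe set, 1445452_at, had ratios of 0.416, 1.00, 2.05, 0.801 and 2.43 in P30 cells, against 0.368, 0.410, 1.51, 1.5 and 1.00 in P6 cells. Its cells overlapped, and the difference was 0.46 (1.37-fold). The 2 probe sets of Traf1 thus differed in size by far, with 3.27 as their mean, and which transcripts each reads was not analysed here.

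Traf6, the ubiquitin ligase of the pathway, had a single probe set of 5 past 3-fold. Traf6 1435350_at had ratios of 0.217, 4.33, 27.5, 0.808 and 6.25 in P30 cells, against 0.0874, 0.135, 3.54, 0.641 and 1.00 in P6 cells. It was above every P6 cell in 3 P30 cells, and the other 2 P30 cells lay among the P6 cells. The mean was 1.41 ± 2.71 at P30 and -1.04 ± 2.18 at P6, a difference of 2.45 (5.47-fold), as large as the SD of the cells of an age. Without P30 replicate 3 it was 1.61, barely past 3-fold, and without P30 replicate 1 it was 3.35. Traf6 1446940_at differed by 1.01 (2.02-fold), with ratios of 1.58, 1.49, 1.98, 1.66 and 0.689 in P30 cells, against 1.11, 1.10, 0.903, 0.683 and 0.213 in P6 cells. There all P30 cells but replicate 5 were above every P6 cell. The remaining 3 probe sets differed by -0.31, -0.03 and 0.09 with overlapping cells, the last 2 with signs that turned under another scaling of the arrays, and the mean over all 5 was 0.64.

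**Figure D2:**
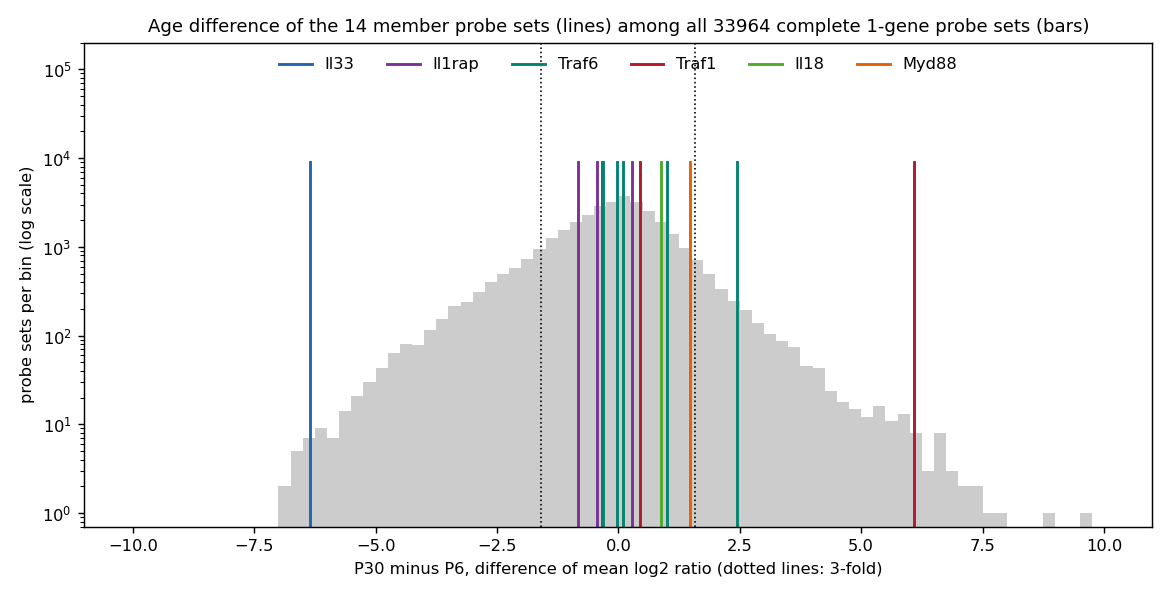
Distribution of the log2 difference P30 minus P6 over all 33964 complete probe sets of 1 gene (bars, number of probe sets per bin on a log axis), with each of the 14 probe sets as a coloured line of arbitrary height and dotted lines at 3-fold. Il33 at -6.34 and Traf1 1423602_at at 6.08 lie in opposite tails, and most others lie near the middle.

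Of the 14 probe sets, 2 were more than 3-fold higher at P30 (Traf1 1423602_at and Traf6 1435350_at), where 6.91% of all probe sets were, and 1 was lower. Over all probe sets that made 2346 higher and 4177 lower, and with arrays scaled to hybridisation spikes 1652 and 5481. None had all P30 cells above all P6 cells, which 1.21% of all probe sets did. At 2-fold, 4 were higher (14.7% of all) and 1 lower (21.6% of all). The median difference was 0.18 for the 14 and -0.05 for all, and 10 of the 14 differed by less than the pooled SD of their cells. That SD had a median of 1.21 for the 14 and 1.25 for all. Myd88 was also higher, for a count of 3 of the 14, under the settings in which it passed 3-fold.

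**Figure D3:**
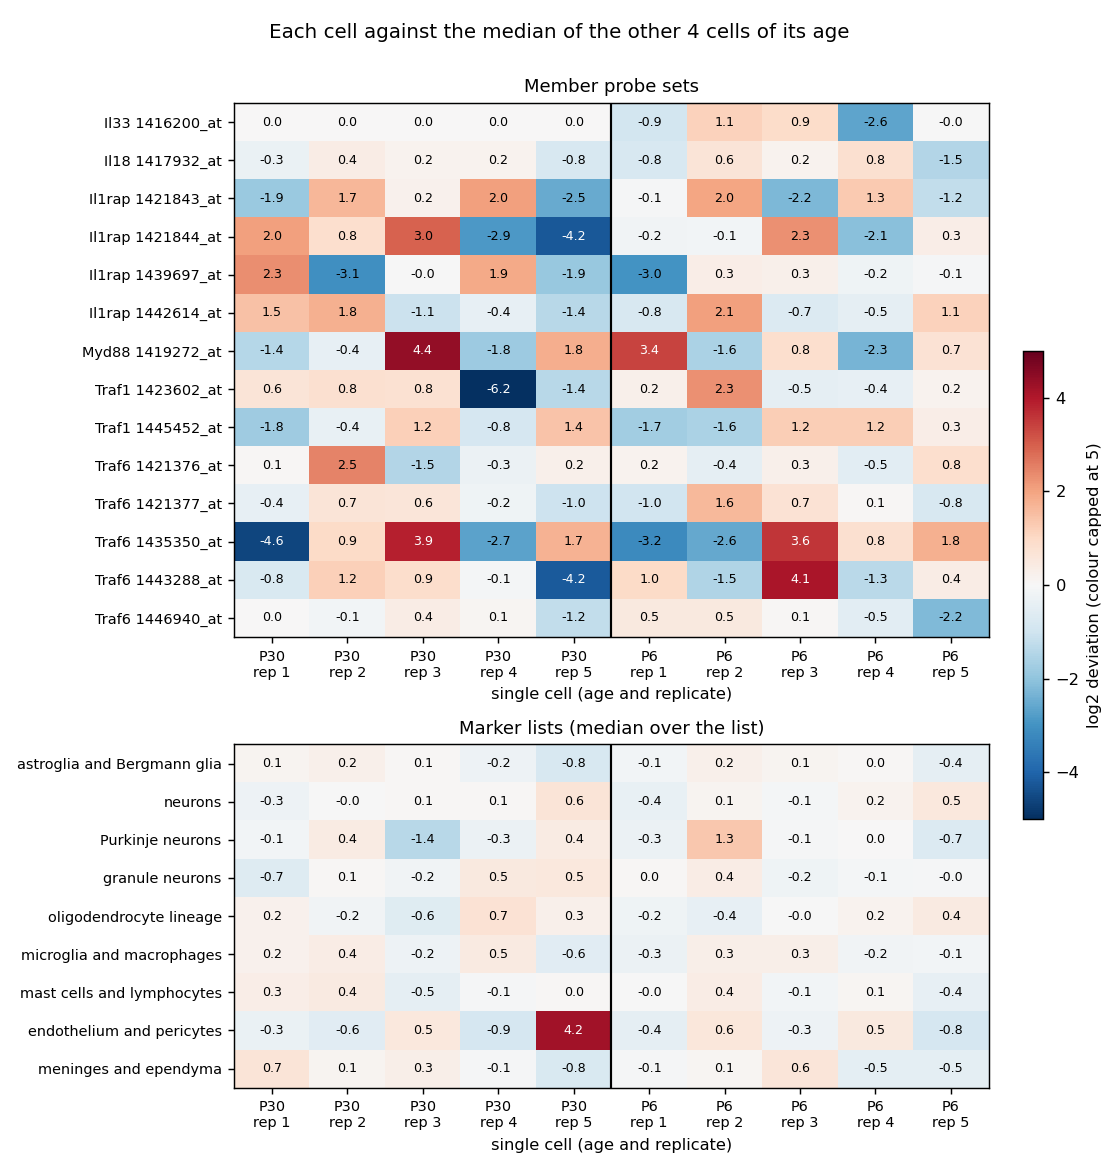
Log2 ratio of each cell minus the median of the remaining 4 at that age, for the 14 probe sets (upper panel) and as the median over each marker list (lower panel), in P30 cells (left) and P6 cells (right), with colour capped at 5. P30 replicate 3 is high in Myd88 and Traf6 1435350_at, and P30 replicate 4 is low in Traf1 1423602_at.

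Single cells stood apart in different genes. P30 replicate 3 was the highest of all 10 cells in Myd88 (22.8), in Traf6 1435350_at (27.5) and in Il1rap 1421844_at (7.36). P30 replicate 5 had the lowest P30 value of Il18 and of 3 Traf6 and 3 Il1rap probe sets, and also the lowest array median (0.726). In this cell 12 of 17 probe sets for endothelium and pericytes were more than 3-fold above the median of the remaining P30 cells (median deviation 4.21), while in no other cell did more than 4 pass that size or the deviation exceed 0.57. Its median deviation over the 44 probe sets for astroglia and Bergmann glia was -0.82, the lowest of the 10 cells, and 8 of 22 probe sets for neurons, 8 of 18 for granule neurons, 6 of 13 for Purkinje neurons and 10 of 29 for the oligodendrocyte lineage were more than 3-fold above. The part of these in the low values was not tested. With this cell left out, the differences of Il1rap 1421843_at and 1421844_at were 0.11 and 1.05, and that of Traf6 1443288_at was 0.92. P30 replicate 4, the low cell of Traf1, was the lowest P30 cell in 23.4% of the 2346 probe sets more than 3-fold higher at P30, and replicate 5 in 23.9%, while the other 3 were lowest in 16.3% to 18.7%. In replicate 4, 11 of 29 probe sets for the oligodendrocyte lineage were more than 3-fold above the remaining P30 cells (median deviation 0.73, the highest of the 10 cells), and the astroglia and Bergmann glia list was at -0.24. The part of these in its low Traf1 value was not tested. Among P6 cells, replicate 5 also had 8 of 22 neuron and 10 of 29 oligodendrocyte lineage probe sets more than 3-fold above the others. The high P6 cell of Traf1, replicate 2, had 6 of 13 for Purkinje neurons (median deviation 1.34, the highest of the 10 cells). The part of these in the P6 values was not tested. For all these single-cell marker counts, the share of all probe sets past that size in a cell was not computed. They therefore have no background to be read against. The astroglia and Bergmann glia list itself had between 2 of 44 (P6 replicate 4) and 10 of 44 (P30 replicate 1) past it.

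By likeness of profile, the 5 probe sets nearest to Il33 over the 10 cells were those of Mfap4, 1700086L19Rik, Dab1, Septin9 and Cyb5r4. The measure was the root mean square log2 difference between centred profiles, and it was 0.65 to 0.73 for them, against a median of 3.45 over 33963 probe sets. Since likeness to this profile chose them, each was also at or near the floor in the P30 cells, Dab1 in all 5 of them. Dab1 encodes the adaptor of reelin signaling, Mfap4 a protein of extracellular microfibrils and Septin9 a cytoskeletal GTPase. For Traf1 1423602_at the nearest were Myl9, a myosin light chain, Epas1, the hypoxia-inducible factor 2 alpha, Shld1, Chst10 and Amigo2, at 0.76 to 1.02 against a median of 3.76. The choice by profile also fixed that they share the low P30 replicate 4 of Traf1. In Myl9 the log2 ratio was 0.78 in that cell and 9.09 in the highest P30 cell.

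**Figure D4:**
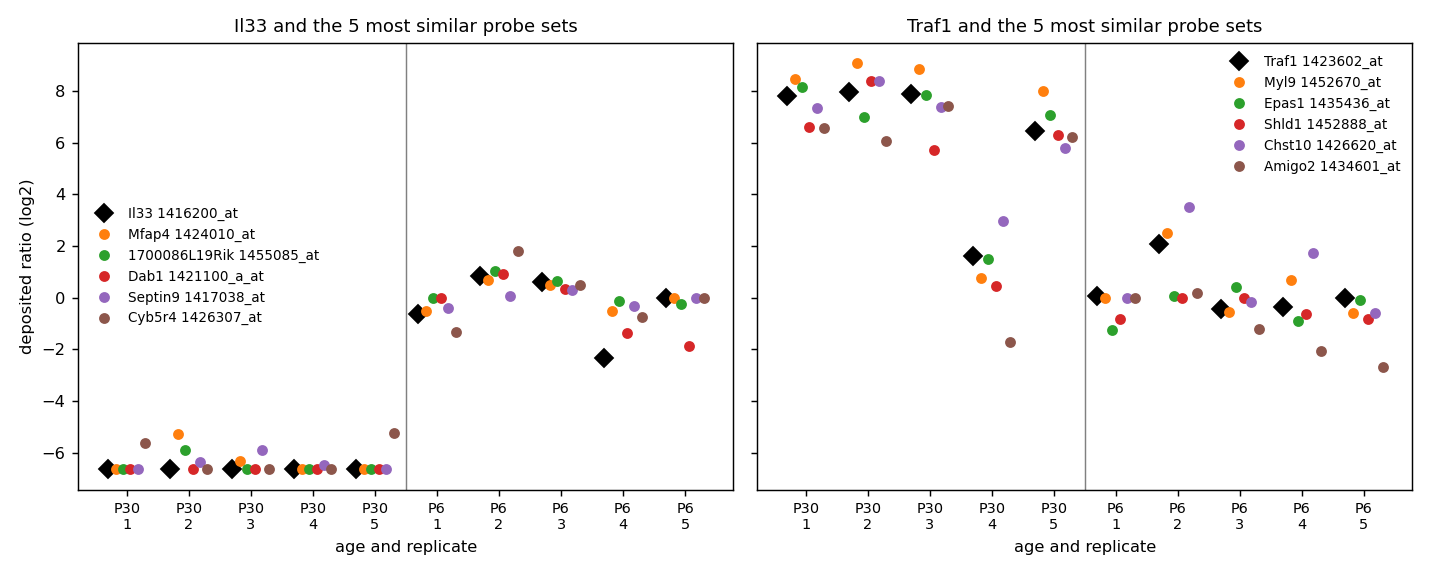
Deposited ratio (log2) in each of the 10 cells, P30 left of P6, for Il33 (left panel) and Traf1 1423602_at (right panel), drawn as black diamonds, with the 5 most similar probe sets of each. The 5 nearest to Il33 sit at or near the floor at P30, and the 5 nearest to Traf1 share its low P30 replicate 4, as the choice by profile entails.

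The genes around these members were taken from 10 lists of the pathway, with 85 of 101 genes measured by 172 probe sets. More than 3-fold higher at P30 were 7 probe sets (4.07%) and lower were 21 (12.2%), where all probe sets gave 6.91% and 12.3%, and the median difference was -0.03. The lists were picked with results of these cells known, and their counts are a description.

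Other ligands of the IL-1 family and their natural inhibitors had 0 of 7 probe sets past 3-fold in either direction, and genes of the inflammasome, which processes interleukin 18, had 0 of 10. Among receptors, 1 of 11 probe sets passed, that of the decoy receptor Il1r2, at -1.62, with P30 ratios of 0.0561 to 0.444 and P6 ratios of 0.1 to 1.2. Its cells overlapped, and without P30 replicate 5 the difference was -1.18. It was within 3-fold in 5 of the 10 differences with a cell left out. Of the Toll-like receptor list, which shares MyD88, 2 of 15 were higher, both of Tlr3, the sensor of double-stranded RNA that signals without MyD88. The larger was 3.05, with P30 ratios of 1.24 to 137 and P6 ratios of 0.202 to 4.95, and the difference of medians there was 0.85. Of the adaptors and kinases next to the receptors, 3 of 20 were lower and 0 higher. Tirap, a bridging adaptor to MyD88, was at -4.42 (P30 0.01 to 0.446, P6 0.0658 to 3.81), with its other probe set at -0.04. Ecsit, a TRAF6-binding adaptor, was at -2.27 (P30 0.0504 to 0.726, P6 0.0383 to 4.01), with no P30 cell below all P6 cells and -1.67 to -3.35 over left-out cells. The ubiquitin ligase Peli1 was at -1.78 in 1417371_at, which became -0.82 without P30 replicate 2. The rest of its 5 probe sets ran from -0.87 to 1.33, within 3-fold.

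Of the other TRAF genes, 3 of 6 probe sets were lower at P30, and none higher. Traf2, the partner through which TRAF1 reaches TNF receptors, was at -3.74, with ratios of 0.01 to 0.466 in P30 cells, of which 2 were at the floor, and 0.174 to 2.28 in P6 cells. Traf4 had a lower mean in both of its probe sets, at -2.54 and -1.94. In 1460642_at 4 of 5 P30 cells were below all P6 cells. In 1416571_at the cells overlapped widely, with log2 ratios of -6.25 to 3.81 at P30 and -4.19 to 2.11 at P6. Among TRAF partners and TNF receptor genes, 2 of 35 were higher, of Tnfaip3 and Cyld, and 1 lower, also of Cyld. Tnfaip3, which encodes the A20 inhibitor of NF-kappaB, was at 2.23, with P30 ratios of 0.980 to 4.47 and P6 ratios of 0.271 to 1.00, and its other probe set at 1.52. Cyld, a deubiquitinase that opposes TRAF6, was at -2.34 in 1429618_at, where each P30 cell (0.0705 to 0.157) was below the lowest P6 cell (0.223), while another of its 4 probe sets was at 1.92.

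The ubiquitin enzymes and the TAK1 complex, which act just after TRAF6, had 5 of 15 probe sets lower and 0 higher, with a median of -1.22. Map3k7, the gene of TAK1, made up 4 of these 5. Its 1455441_at was at -4.65, or -2.91 with a floor of 0.1, with ratios of 0.01 to 0.425 in P30 cells, all below the 0.637 to 1.39 of P6 cells, while its other probe sets ranged from -2.80 to 0.90. Ube2n, the ubiquitin-conjugating enzyme that works with TRAF6, was at -2.96 with overlapping cells, and its other probe set was at -0.74. Of the IKK complex and NF-kappaB, 3 of 26 were lower and 1 higher, Bcl3, an atypical inhibitor protein of the family, at 1.82 with every P30 cell above every P6 cell. Bcl3 was named after its values were seen. Rela, the p65 subunit, was at -3.41 (P30 0.0189 to 0.614, P6 0.565 to 1.77). Nfkb2 was at -2.65, which was -3.88 without P30 replicate 1 and -0.88, within 3-fold, by arithmetic means. The other Nfkb2 probe set was at 0.26. The IKK subunit Ikbkg was at -1.97 in 1421209_s_at, which became -0.78 without P6 replicate 5, the cell with a ratio of 51.7. The rest of the 6 Ikbkg probe sets ran from -1.58 to 0.73, within 3-fold. Of the stress kinases and AP-1, 5 of 27 were lower and 2 higher. The immediate early gene Fos was at -4.61, or -2.42 with a floor of 0.1, with P30 ratios of 0.01 to 0.0362, of which 2 were at the floor, P6 ratios of 0.0268 to 1.81, and 4 of 5 P30 cells below all P6 cells. Mapk8, which encodes JNK1, was at -2.66 with SDs of 4.39 at P30 and 3.16 at P6, and ran from -1.77 to -3.98 over left-out cells. It was within 3-fold by arithmetic means (-0.75) and with a floor of 0.1 (-1.26). Mapk8 had another of its probe sets also lower, at -2.04, and the cells overlapped in both. Its 1420931_at was higher, at 1.87, with every P30 cell (log2 ratio 0.13 to 2.96) above every P6 cell (-0.70 to 0). Atf2 1427559_a_at (-1.78) and Map2k4 1451982_at (-2.33), the remaining probe sets lower here, and the other probe sets of Mapk8 were named after their values were seen. The other Atf2 probe sets ran from 0.15 to 0.44, and the other of Map2k4 was at -1.45. Map2k6, a kinase of p38, was at 3.76, with P30 ratios of 5.70 to 17.8, all above the P6 ratios of 0.304 to 4.79.

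**Figure D5:**
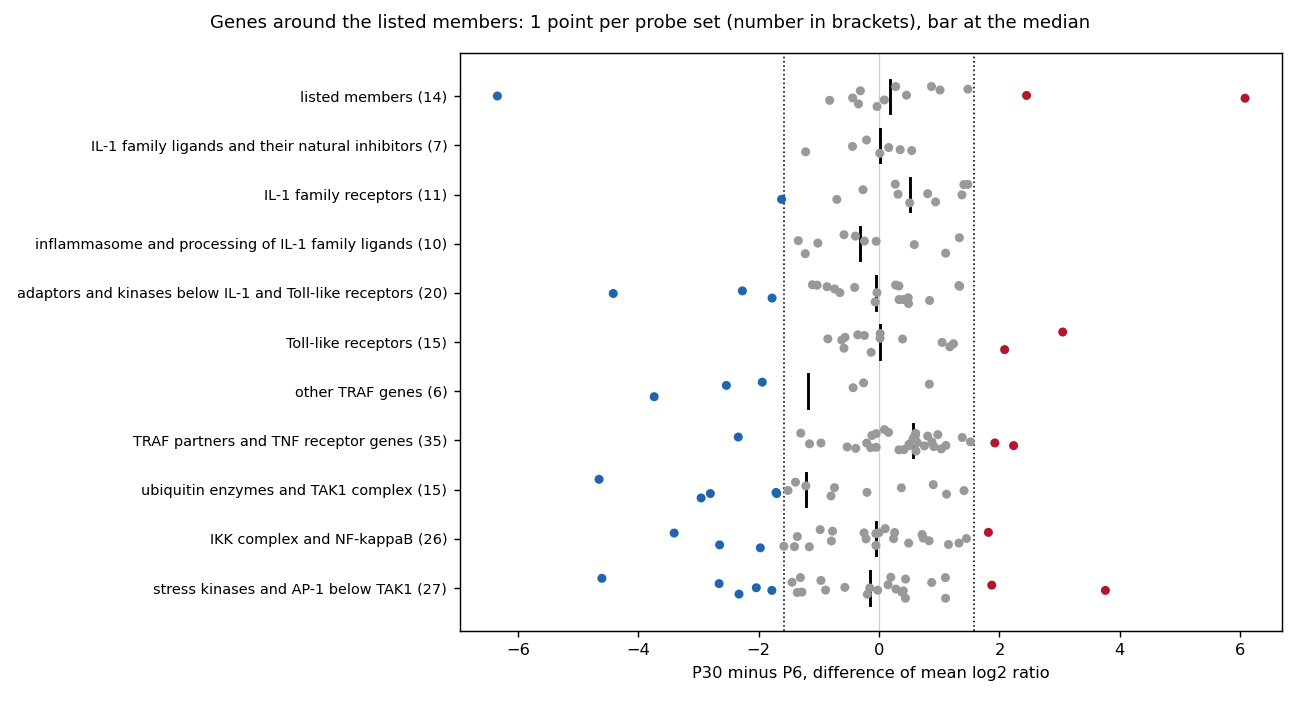
Log2 difference P30 minus P6 of the 14 probe sets (top row) and of the 172 of the 10 pathway lists, 1 point each, with a bar at the median, dotted lines at 3-fold, and red for more than 3-fold higher and blue for lower at P30. The TAK1 and ubiquitin list and the other TRAF genes have medians of -1.22 and -1.19, and the remaining pathway lists lie between -0.32 and 0.56.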

How the data were processed

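Amplified cDNA of 10 single cells was hybridised to 1 array each. The authors processed the scans with RMA in GeneSpring GX 7.3, set values under 0.01 to 0.01, scaled every array to its 50th percentile, then every probe set to a median, and deposited the linear ratio. No genome build is given in the sources used here. Of 45101 probe sets, 43608 had a value in all cells and 1493 a blank. Genes came from the platform annotation (34958 probe sets with 1 gene, 932 with several, 9211 with none), and 10 zeros were set to 0.01. The number of arrays limits the precision. Depth does not apply, since ratios hold no counts.

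Ratios were taken to log2, and the difference of means P30 minus P6 was computed for every complete 1-gene probe set with pandas 2.3.3, SciPy 1.17.1 and NumPy 2.4.6 under Python 3.11.15, and figures were drawn with Matplotlib 3.10.9. No test was run, because the labels name no animals, and calls rest on a 3-fold size rule and on overlap of cells. The computation was run on simulated data with a spread far below that of the real cells, which checks the code and not the calls. The 7 genes, the 10 pathway lists and the marker lists were chosen with earlier results of these data known. Named were all members, up to 3 genes over 3-fold with the largest difference in each list, and the 5 probe sets nearest in profile to Il33 and to Traf1. Alternatives were a floor of 0.1, medians, arithmetic means, 2-fold, scaling to array medians or hybridisation spikes, and leaving out each cell. Taking each gene as the mean of its probe sets was added after seeing the data.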

Additional observations from a re-analysis of the deposited data

Results flagged for a closer look

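In 27 groups of 5 cells, 4 held a cell whose gap to its nearest neighbour on the log2 scale, divided by the range of the group, was above Dixon's critical value of 0.71. Chance flags about 1 in 20 groups. Traf1 1423602_at had such a cell at both ages. P30 replicate 4 was low (ratio 3.10, gap share 0.764), and P6 replicate 2 was high (ratio 4.28, gap share 0.809). In Il1rap 1439697_at, P6 replicate 1 was low, with a ratio of 0.126 and a gap share of 0.881. In Traf6 1446940_at, P30 replicate 5 was low, with a ratio of 0.689 and a gap share of 0.734.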

How the results depend on the processing

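No paired analysis was possible because no result comes from a test, and the replicate numbers that both ages carry name cells only. Over 38 results, 586 alternative values were computed, and no called value changed sign. Il33 came to -3.02 with a floor of 0.1, against -6.34 with 0.01. Members higher at P30, 2 at 3-fold, numbered 4 at 2-fold and 1 with genes as means, an alternative chosen after seeing the data. They numbered 3, with Myd88, when arrays were scaled to their median, by arithmetic means, and without P30 replicate 1, 2 or 4 or P6 replicate 1. Pathway probe sets higher at P30, 7 at first, were 12 by medians, 14 by arithmetic means, 28 at 2-fold and 7 to 14 with 1 cell left out, being 14 without P30 replicate 2 and without P6 replicate 2, 12 without P30 replicate 4 and without P6 replicate 3, and 11 without P30 replicate 1. Those lower, 21, were 40 at 2-fold. Over all probe sets, 2346 higher and 4177 lower became 4986 and 7346 at 2-fold. Scaling to array medians removes -0.16 from each log2 difference and scaling to 18 spike probe sets 0.28. Named pathway genes that fell within 3-fold were Nfkb2 (-0.88), Mapk8 (-0.75), Traf4 (-1.41) and Peli1 (-1.29) by arithmetic means, Mapk8 (-1.26), Peli1 (-1.42) and Il1r2 (-1.45) with a floor of 0.1, Tlr3 (0.85), Peli1 (-0.68) and Ikbkg (-1.41) by medians, and Il1r2 (-1.46) with arrays scaled to their median. With a floor of 0.1, Fos came to -2.42 and Map3k7 to -2.91. Among probe sets within 3-fold, Il1rap 1421844_at ran from -0.34 to 1.05 and Traf6 1443288_at from -0.31 to 0.92 over left-out cells.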
